A study of Homo sapiens with 6 samples.

Results

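The 10 genes NT5E, ANPEP, ENTPD1, DPP4, MME, FAP, CD44, MCAM, THY1 and ENG encode ectoenzymes and antigens of the cell surface that are widely used to mark mesenchymal and stromal cells. They were taken by gene symbol from a table of 21293 genes, and each of the 10 symbols was found once. The 6 RNA-seq libraries came from H2087-LCC, a dormancy-competent derivative of the human lung adenocarcinoma (LUAD) line H2087. The SB group (2 libraries) was incubated for 3 days with SB505124, which blocks TGFβ receptor kinase activity, and 2 further groups of 2 libraries were incubated with TGFβ for 3 days or for 7 days. All groups were made from 1 cell population. SB was sampled at 3 days only, so the comparison of 7 days with SB also holds the time in culture. Libraries within a group are described as technical replicates, and the errors and p-values below may then not cover variation between cultures. The question addressed here was how these surface genes changed with TGFβ at 3 days, when the study describes spindle-shaped cells, and at 7 days, when it describes mostly spheroidal cells.

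Ectoenzymes act on substrates outside the cell. CD39 (ENTPD1) cleaves ATP and ADP to AMP, and CD73 (NT5E) cleaves AMP to adenosine, which signals through adenosine receptors. CD13 (ANPEP), CD10 (MME), CD26 (DPP4) and fibroblast activation protein (FAP) are membrane peptidases that trim or inactivate peptides. CD44 binds hyaluronan, MCAM (CD146) is an adhesion molecule of the immunoglobulin superfamily, endoglin (ENG, CD105) is a co-receptor for TGFβ and BMP ligands, and THY1 (CD90) is a small GPI-anchored glycoprotein. CD73, CD90 and CD105 together form the usual antigen panel of mesenchymal stromal cells in culture, and mesenchymal surface antigens often appear on carcinoma cells during EMT.

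The values are normalized counts, that is, read counts per gene that the authors scaled to library size and rounded. The sum over all genes was between 34306283 and 36340734 per library. Log2 fold changes are on the scale of log2 (normalized count + 1) and were tested with limma across the 14395 genes averaging 10 or more, with Benjamini-Hochberg adjustment at 0.05. Of the 10 genes, 9 were tested, and THY1 was not. A known target of TGFβ served as a check of the treatments. The normalized count of SMAD7, a feedback target of TGFβ, was 112 and 79 in SB, 916 and 799 at 3 days and 854 and 747 at 7 days. The SB libraries differed in the epithelial gene CDH1, which stood at 371 and 635 normalized counts.

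After 3 days of TGFβ, 6 of the 9 tested genes (ANPEP, CD44, ENG, FAP, MME and NT5E) were higher than in SB, and 1, DPP4, was lower (limma, adjusted p under 0.05). Over all genes tested, 29.0% were past the threshold in this comparison, with 14.9% higher and 14.0% lower. After 7 days, 7 were higher than in SB, with MCAM added, and DPP4 was still lower, against 54.5% of all genes past the threshold, with 27.7% higher and 26.9% lower. Between 7 days and 3 days of TGFβ, ANPEP, DPP4, ENG, FAP and NT5E were higher at 7 days and ENTPD1 was lower, against 33.2% of all genes past the threshold, with 17.0% higher and 16.2% lower. Counted by libraries that did not overlap, 8 members were above and 1 below SB at 3 days, against 30.3% and 32.9% of all genes. At 7 days 7 were above and 2 below SB, against 38.9% and 38.6%. Between the TGFβ times 5 were above and 3 below at 7 days, against 36.2% and 32.9%. Both comparisons with SB share the SB libraries. FAP passed the filter on low values only through its TGFβ libraries, so it had to differ, and its calls are given as a description. Counted without FAP, 5 of 8 genes were higher and 1 lower at 3 days than in SB, 6 were higher and 1 lower at 7 days, and 4 were higher and 1 lower at 7 days than at 3 days. An exact permutation test of 2 libraries against 2 has a smallest p of 0.333, so the p-values given are those of limma.

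**Figure D1:**
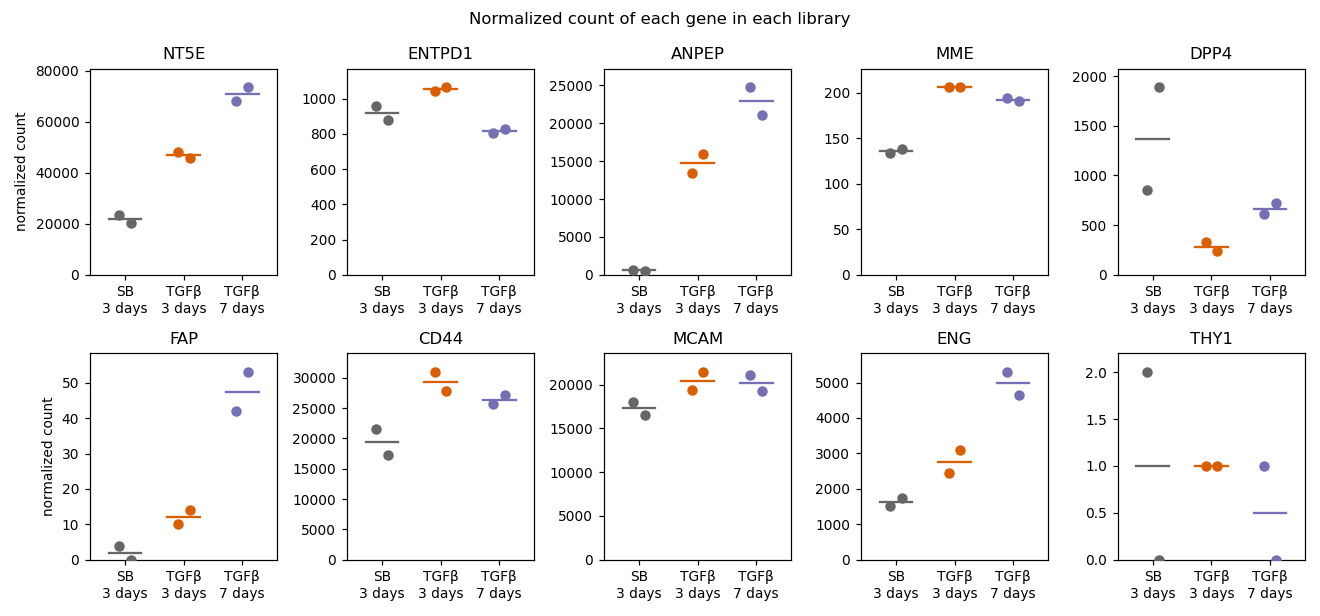
Normalized count (vertical axis, from 0) of each of the 10 genes in each library, with SB in grey, TGFβ for 3 days in orange and TGFβ for 7 days in purple. Each point is a library and each line the mean of 2; NT5E, ANPEP and ENG step up at each stage, DPP4 drops to 325 and 241 at 3 days and lies at 615 and 719 at 7 days, and THY1 stays at 2 or below.

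**Figure D2:**
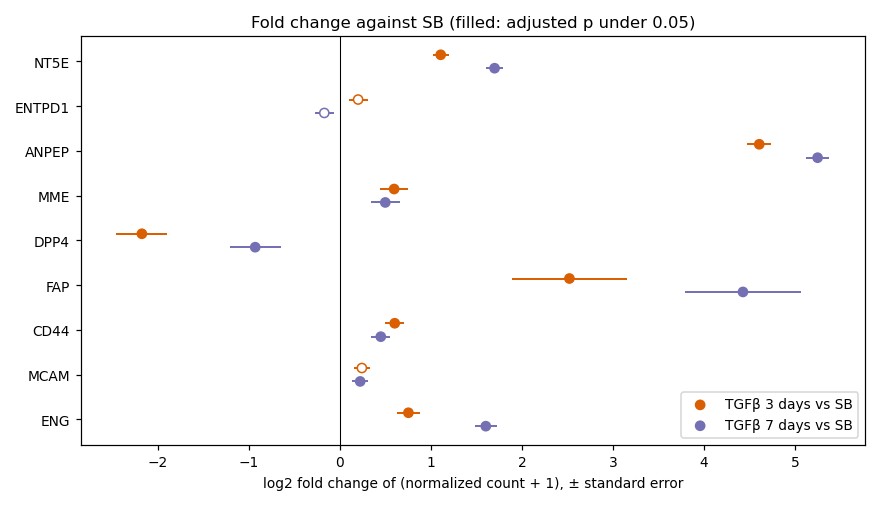
Log2 fold change against SB (horizontal axis, on normalized count + 1, bars are the standard error of the limma fit) for the 9 tested genes at 3 days (orange) and 7 days (purple) of TGFβ. Filled points have an adjusted p under 0.05; ANPEP reaches 5.25 at 7 days, and DPP4 alone is past the threshold on the lower side.

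The sequences upstream of the start sites of NT5E, ANPEP and ENG, which with FAP were the genes higher at each step, and of DPP4, which fell first, are shown for context. They are the 250 bases before the RefSeq start of each gene (build GRCh38.p14, 5′ to 3′ on the gene's strand), from a table that matched 8 of the 10 genes (all but FAP and THY1). Other promoters of the same gene were not examined. Capitals mark CAGAC or its reverse complement GTCTG, the core of the SMAD binding element, and GGGCGG or its reverse complement CCGCCC, the GC box. The E-box CACCTG (reverse complement CAGGTG) and the AP-1 motif TGANTCA, searched on both strands, were in none of the 4 windows. NT5E is at chr6:85449833-85450082 (plus strand), ANPEP at chr15:89814853-89815102, ENG at chr9:127854659-127854908 and DPP4 at chr2:162074216-162074465 (minus strand for the last 3).
NT5E: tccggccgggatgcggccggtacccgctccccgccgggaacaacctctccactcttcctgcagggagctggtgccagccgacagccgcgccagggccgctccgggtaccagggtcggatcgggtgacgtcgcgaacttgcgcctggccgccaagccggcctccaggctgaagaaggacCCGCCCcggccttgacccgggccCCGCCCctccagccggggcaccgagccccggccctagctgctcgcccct
ANPEP: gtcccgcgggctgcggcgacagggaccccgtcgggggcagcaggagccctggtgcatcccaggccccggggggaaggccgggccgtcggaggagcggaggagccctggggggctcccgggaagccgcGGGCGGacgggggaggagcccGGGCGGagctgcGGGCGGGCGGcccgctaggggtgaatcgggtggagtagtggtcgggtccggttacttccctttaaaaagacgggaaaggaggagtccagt
ENG: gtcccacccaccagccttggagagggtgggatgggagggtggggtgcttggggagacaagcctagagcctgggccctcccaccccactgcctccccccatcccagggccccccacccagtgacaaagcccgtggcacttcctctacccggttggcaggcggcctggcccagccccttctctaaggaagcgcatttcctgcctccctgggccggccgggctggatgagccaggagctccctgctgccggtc
DPP4: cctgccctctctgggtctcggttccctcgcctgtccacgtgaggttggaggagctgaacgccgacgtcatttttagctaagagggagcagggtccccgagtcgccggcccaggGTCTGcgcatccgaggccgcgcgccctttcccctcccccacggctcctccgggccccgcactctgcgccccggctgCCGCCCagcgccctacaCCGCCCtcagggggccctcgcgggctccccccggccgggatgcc
The SMAD core was present in the windows of DPP4, ENTPD1 and MCAM, 3 of the 8 genes, and in 38.0% of all 35116 promoter windows of the same length. Neither NT5E, ANPEP nor ENG held these letters in this window. The GC box was present in 6 of the 8 genes (all but ENTPD1 and ENG), against 42.6% of all windows. NT5E held 2 copies, at 72 and 49 bases before the start, and ANPEP held 4, of which the last 2 overlap. The E-box was found in MCAM alone, against 17.5% of all windows, and the AP-1 motif in none of the 8 genes, against 6.57%. A match is a string of letters and not a known binding site.

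NT5E, which encodes CD73, the enzyme that makes adenosine from AMP, rose at both steps. The gene spans 86159302 to 86205509 of chromosome 6 (GRCh37). Its normalized count was 23409 and 20368 in SB, 48388 and 45747 at 3 days of TGFβ, and 68361 and 73595 at 7 days. The 3 groups did not overlap and were ordered SB, 3 days, 7 days, with each neighbour apart beyond the spread of the libraries. The mean was 2.15-fold that of SB at 3 days (log2 fold change 1.11 ± 0.09 SE, limma adjusted p = 2.37e-06) and 3.24-fold at 7 days (1.70, adjusted p = 3.01e-08). From 3 days to 7 days it rose by a further 0.59 (adjusted p = 0.000632).

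ENTPD1, which encodes CD39, the enzyme one step upstream of CD73, showed no comparable rise. The gene spans 97471536 to 97637023 of chromosome 10 (GRCh37). ENTPD1 stood at normalized counts of 959 and 878 in SB, 1044 and 1064 at 3 days and 802 and 827 at 7 days. The libraries of each pair of groups did not overlap, but the steps were small. Against SB, the log2 difference of ENTPD1 was 0.20 for the 3-day libraries (limma adjusted p = 0.178) and -0.17 for the 7-day libraries (adjusted p = 0.184), neither past the threshold. The fall from 3 days to 7 days, -0.37 (adjusted p = 0.0184), was past it. That call was lost when any of the 4 libraries of the 2 groups was left out, with adjusted p-values from 0.0795 to 0.120, while the value stayed between -0.39 and -0.35. The antisense gene ENTPD1-AS1 overlaps the locus and was listed at 2 to 10 normalized counts, and without strand its reads cannot be told apart from those of ENTPD1.

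Taken per kilobase of exon (union of the exons in GENCODE), the level of NT5E exceeded that of ENTPD1 77.2-fold and 73.4-fold in the SB libraries. The exon lengths, over all annotated isoforms, were 4533 bases for NT5E and 14344 for ENTPD1, so the size of the ratio is approximate. The ratio was 147 and 136 at 3 days and 270 and 282 at 7 days, so that the libraries of the 3 groups did not overlap. The transcripts of these successive enzymes of adenosine formation thus lay further apart at each step.

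ANPEP, which encodes the aminopeptidase CD13, changed most among the well-expressed genes. The gene spans 90328126 to 90358633 of chromosome 15 (GRCh37). ANPEP stood at normalized counts of 684 and 526 in SB, 13424 and 16004 at 3 days, and 24746 and 21119 at 7 days. Every TGFβ library was far above both SB libraries, and the 7-day libraries were above the 3-day libraries. The mean at 3 days was 24.3-fold that of SB (log2 fold change 4.61 ± 0.13 SE, limma adjusted p = 7.42e-10) and 37.9-fold at 7 days (5.25, adjusted p = 7.71e-11). Between the TGFβ times ANPEP differed by 0.64 (adjusted p = 0.00352). That call for ANPEP did not survive testing all genes, unfiltered (adjusted p = 0.0580), or a fit without the trend on mean expression (0.0535), and the adjusted p was between 0.000190 and 0.0580 over all alternatives.

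MME, which encodes neprilysin (CD10), a metallopeptidase that degrades small signalling peptides, rose modestly and stayed there. The gene spans 154741913 to 154901493 of chromosome 3 (GRCh37). MME stood at normalized counts of 134 and 138 in SB, 206 in both libraries at 3 days, and 194 and 191 at 7 days. All TGFβ libraries were above SB and close to each other. The log2 fold change was 0.60 ± 0.16 SE at 3 days (limma adjusted p = 0.0140) and 0.50 at 7 days (adjusted p = 0.0178). Between the TGFβ times MME differed by -0.10, not past the threshold (adjusted p = 0.666). The calls against SB were lost when either TGFβ library of the comparison was left out, with adjusted p-values of 0.0803 and 0.0690 at 3 days and 0.0953 and 0.0844 at 7 days.

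DPP4 (CD26) and FAP encode closely related serine peptidases that cleave after proline, and their genes are neighbours on chromosome 2 of GRCh37. DPP4 spans 162848755 to 162930904 and FAP spans 163027194 to 163101661, both on the minus strand with 96290 bases between them. GCG, the only other gene of the table between them, was listed at 0 or 1 normalized count in every library. The DPP4 count was 853 and 1888 in SB, 325 and 241 at 3 days, and 615 and 719 at 7 days. All TGFβ libraries were below both SB libraries, the 3-day libraries were lowest, and the SB pair was wide. The log2 fold change of DPP4 was -2.18 ± 0.28 SE at 3 days (limma adjusted p = 0.000116) and -0.93 at 7 days (adjusted p = 0.0144). From 3 days to 7 days it rose by 1.25 (adjusted p = 0.00608).

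The DPP4 call at 7 days rested in large part on the SB library with 1888 normalized counts, the second. Without it the log2 fold change of DPP4 was -0.36 (adjusted p = 0.143), against -0.93 with both. Without the first 7-day library it was -0.82 (adjusted p = 0.0715). At 3 days the fall of DPP4 held in each fit that left out a library, with values from -2.75 to -1.60. The calls of DPP4 at 7 days were also lost when all genes were tested, unfiltered (adjusted p = 0.122 against SB and 0.0885 against 3 days), and without the trend (0.0957 and 0.0705). The second SB library also had the higher CDH1 count (635), and the part of this difference in the DPP4 result was not tested.

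FAP, a marker of activated fibroblasts, was listed at 4 and 0 normalized counts in SB, at 10 and 14 at 3 days and at 42 and 53 at 7 days. The 3 groups did not overlap, but every value was low. On read numbers estimated from these values, the ratio of the FAP level to SB was 5.49 at 3 days (95% exact interval 1.9 to 21.7) and 21.8 at 7 days (8.27 to 81.7). The ratio of 7 days to 3 days was 3.98 (2.55 to 6.44). These intervals cover counting error only. The limma fit, for which FAP was selected by its own TGFβ values, gave an adjusted p of 0.0112 at 3 days, 0.000115 at 7 days and 0.0382 between 7 days and 3 days. With all genes tested, unfiltered, these were 0.0926, 0.00957 and 0.158. The last call was lost when any library of the 2 groups was left out (adjusted p from 0.0596 to 0.173), and with a pseudocount of 0.5 (0.0828). The call at 3 days was also lost without the trend (0.0646), and its fitted log2 fold change of 2.52 moved to 1.36 without the second SB library and to 3.68 without the first. Relative to SB, DPP4 was lower and FAP higher at both times, and both rose from 3 days to 7 days.

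CD44, the main hyaluronan receptor, rose moderately by 3 days. The gene spans 35160429 to 35253949 of chromosome 11 (GRCh37). CD44 stood at normalized counts of 21533 and 17337 in SB, 30932 and 27810 at 3 days, and 25677 and 27090 at 7 days. Both TGFβ groups were above SB, and the 7-day libraries lay just below the 3-day libraries. The log2 fold change of CD44 was 0.60 ± 0.10 SE at 3 days (limma adjusted p = 0.00104) and 0.45 at 7 days (adjusted p = 0.00325). Between the TGFβ times CD44 differed by -0.15 (adjusted p = 0.283), which was not past the threshold. The table holds 1 value per gene, so the splice forms of CD44 were not resolved.

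MCAM was high in all libraries and changed little. The gene spans 119179239 to 119192231 of chromosome 11 (GRCh37), and MCAM stood at normalized counts of 17983 and 16574 in SB, 19434 and 21418 at 3 days, and 21080 and 19241 at 7 days. The TGFβ libraries were above SB by a small margin and overlapped each other. The log2 fold change of MCAM was 0.24 ± 0.09 SE at 3 days (limma adjusted p = 0.0574) and 0.22 at 7 days (adjusted p = 0.0478). At 3 days MCAM was past the threshold with upper-quartile scaling (adjusted p = 0.0460) and without the first SB library (0.0421). The call at 7 days held in 5 of 16 alternatives, with adjusted p-values from 0.0295 to 0.321. It was lost with equal library totals (0.0986) and with the replicate number as a block (0.0733), and without any single library other than the first SB library. MCAM overlaps CBL on the opposite strand, with CBL at 4327 to 6784 normalized counts, and the library kit did not mark strand.

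ENG, the co-receptor endoglin, rose at both steps. The gene spans 130577292 to 130616937 of chromosome 9 (GRCh37). ENG stood at normalized counts of 1527 and 1746 in SB, 2447 and 3094 at 3 days, and 5291 and 4655 at 7 days. The groups were ordered SB, 3 days, 7 days without overlap. The log2 fold change of ENG was 0.75 ± 0.12 SE at 3 days (limma adjusted p = 0.000658) and 1.60 at 7 days (adjusted p = 6.99e-07), a mean 1.69-fold and 3.04-fold that of SB. The rise from 3 days to 7 days was 0.85 (adjusted p = 0.000472). The calls of ENG, NT5E and CD44 against SB held in all 16 alternatives, as did those of ENG and NT5E between 7 days and 3 days.

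THY1 was at or below 2 normalized counts in each library, with 2 and 0 in SB, 1 and 1 at 3 days, and 1 and 0 at 7 days. A change was not detectable at this depth, since a count of 0 still allows up to 3 counts. THY1 spans 119286186 to 119295695 of chromosome 11 (GRCh37), 93955 bases from MCAM, and overlaps the antisense gene USP2-AS1 (33 to 65 normalized counts). Of the stromal panel of CD73, CD90 and CD105, the genes for CD73 and CD105 therefore rose, and the gene for CD90 was not detectable above the floor. Of the genes for blood cell antigens that such panels exclude, PTPRC, CD34, CD14 and ITGAM were at 8 normalized counts or fewer in every library. HLA-DRA was not: it stood at 101 and 484 in SB, 12 and 9 at 3 days and 51 and 72 at 7 days, and CD79A was at 26 and 73 in SB and at 5 or below with TGFβ. The sum over the 8 blood markers of the table was 151 and 581 in SB, 27 and 23 at 3 days and 73 and 84 at 7 days, and its part in the DPP4 result, which has the same high SB library, was not tested.

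**Figure D3:**
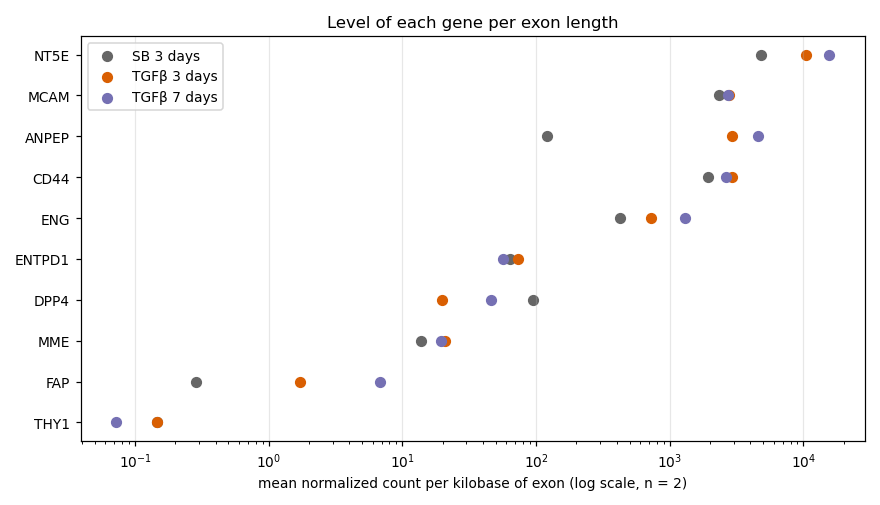
Mean normalized count per kilobase of exon (horizontal axis, log scale, n = 2 libraries) of the 10 genes in SB (grey), 3 days (orange) and 7 days (purple) of TGFβ, ordered by the mean over all libraries. NT5E is highest in each group, and ANPEP moves from 120 in SB to 4545 at 7 days, below NT5E alone; THY1 lies below 1 throughout.

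Per kilobase of exon, the 10 genes covered a wide range of levels. In SB the order of the mean levels was NT5E, with 4829 ± 474 (SD, n = 2), MCAM (2328 ± 134), CD44 (1945 ± 297), ENG (426 ± 40.3), ANPEP (120 ± 22.1), DPP4 (94.96 ± 50.7), ENTPD1 (64.0 ± 3.99), MME (13.8 ± 0.29), FAP and THY1. The levels of ANPEP and DPP4, and of DPP4 and ENTPD1, were within the spread of the DPP4 libraries. At 7 days the order was NT5E (15658 ± 816), ANPEP (4545 ± 508), MCAM (2716 ± 175), CD44 (2640 ± 99.99), ENG (1295 ± 117), ENTPD1 (56.8 ± 1.23), DPP4 (46.2 ± 5.10), MME (19.5 ± 0.22), FAP (6.82) and THY1. ANPEP had passed CD44, MCAM and ENG, and MCAM and CD44 lay within the spread of their libraries. Exon lengths come from all annotated isoforms, so these levels are approximate.

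Other enzymes of nucleotide and adenosine handling moved in both directions. Of a list of 16 further enzymes, 10 were tested. At 7 days 2 were higher than in SB and 7 were lower. The median log2 fold change was -1.41 against -0.00081 over all genes tested. At 3 days 2 were higher and 5 lower, with a median of -0.99 against -0.02. Of all genes tested, 27.7% were higher and 26.9% lower at 7 days, and 14.9% and 14.0% at 3 days. ENTPD2, ENPP2 and ACPP passed the filter only through their SB libraries. Without these 3, 2 of 7 were higher and 4 lower at 7 days (median -0.61), and 2 were higher and 3 lower at 3 days (median -0.32). ENTPD3, a relative of CD39, fell by 2.71 at 7 days, from 1690 and 1434 to 228 and 245 normalized counts, and ENPP3, a nucleotide pyrophosphatase, fell by 1.44. ADA, the deaminase that converts adenosine to inosine, rose by 2.40, from 199 and 389 to 1479 and 1463, and PNP, which acts after ADA, rose by 1.08.

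Of 26 receptors and transporters for adenosine and nucleotides, 13 were tested. At 7 days 6 were above SB and 4 below, and their median log2 fold change was 0.32. At 3 days 5 were higher and 3 lower, with a median of 0.04. Shares over all genes tested were 27.7% higher and 26.9% lower at 7 days, and 14.9% and 14.0% at 3 days. The medians over all genes were -0.00081 at 7 days and -0.02 at 3 days. The lower count at 7 days was close to its share. P2RY6 passed the filter only through its TGFβ libraries, and without it 5 of 12 were higher and 4 lower at 7 days (median 0.03), and 4 were higher and 3 lower at 3 days (median 0.03). The nucleotide receptor P2RY6 went from 4 and 2 normalized counts in SB to 330 and 244 at 7 days, and P2RY2 rose from 317 and 233 to 2486 and 2219. P2RX6 rose by 1.67 and P2RY1 fell by 0.82 on the log2 scale. The adenosine receptors were added after their values were seen. ADORA1 fell by 0.80 at 7 days (adjusted p = 0.000616) and ADORA2B by 0.66 (adjusted p = 0.000805), while ADORA2A and ADORA3 were listed at 3 normalized counts or fewer.

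Of 30 further peptidases of the cell surface and of the DPP4 family, 16 were tested, and at 7 days 7 were above SB and 3 below (median log2 fold change 0.26). At 3 days 3 were higher and 2 lower, with a median of 0.22. Over all genes tested, 27.7% were higher and 26.9% lower at 7 days, and 14.9% and 14.0% at 3 days, so that the 3-day counts were close to the background. ACE, which makes angiotensin II, was at 32 and 77 normalized counts in SB, 80 and 86 at 3 days and 426 and 351 at 7 days. ACE rose by 2.93 on the log2 scale at 7 days, while its value at 3 days, 0.73, was not past the threshold (adjusted p = 0.110). TRHDE, a relative of ANPEP that degrades thyrotropin-releasing hormone, rose by 2.56 and the carboxypeptidase gene CPM by 1.13 at 7 days. GGT5, a gamma-glutamyl transferase, fell by 2.81. FOLH1 and DPP6 were listed at 0 in every library.

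Of 21 genes for hyaluronan turnover and for partners or splicing regulators of CD44, 16 were tested. At 7 days 5 were above SB and 9 below (median log2 fold change -0.39). At 3 days 2 were higher and 5 lower, with a median of -0.06. The shares over all genes were 27.7% higher and 26.9% lower at 7 days, and 14.9% and 14.0% at 3 days. HAS2, a hyaluronan synthase, was at 99 and 175 normalized counts in SB, 143 and 153 at 3 days and 522 and 554 at 7 days. It rose by 2.02 at 7 days, and its value at 3 days, 0.17, was not past the threshold (adjusted p = 0.623). CEMIP, which is needed for hyaluronan degradation, fell by 4.16, with a wide SB pair of 1003 and 2306 against 84 in both 7-day libraries. ESRP2, which promotes epithelial splice forms including those of CD44, fell by 2.59, and SPP1, which encodes the CD44 ligand osteopontin, rose by 3.25.

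Around endoglin, 15 of 17 receptors and ligands of the TGFβ and BMP families were tested, and at 7 days 10 were above SB and 1 below (median log2 fold change 1.02). At 3 days 8 were higher and 1 lower, with a median of 0.69. Among all genes, 27.7% were higher and 26.9% lower at 7 days, and 14.9% and 14.0% at 3 days. The largest changes among those with a mean of at least 100 were those of BMP2, which rose by 4.14, BMPR1B, which rose by 2.95, TGFB2, which fell by 2.92, and TGFB1, which rose by 2.37 at 7 days. Of 18 other antigens of stromal cells, 13 were tested, and 7 were higher and 3 lower at 7 days, with a median of 0.30. At 3 days 3 were higher and 2 lower, with a median of 0.28. The lower count at 7 days and both counts at 3 days were close to the shares over all genes. PDGFRB rose by 3.96, ITGA11 by 2.44, ITGB1 by 1.41 and CD59 by 1.21 at 7 days. The 3 lower genes, named after their values were seen, were SUSD2, which fell by 3.41 (169 and 240 normalized counts in SB, 27 and 12 at 7 days), ALCAM (-0.28) and CD55 (-0.27). VCAM1, CD200, CD248 and PDPN, further stromal antigens, were listed at 2 normalized counts or fewer in each library.

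**Figure D4:**
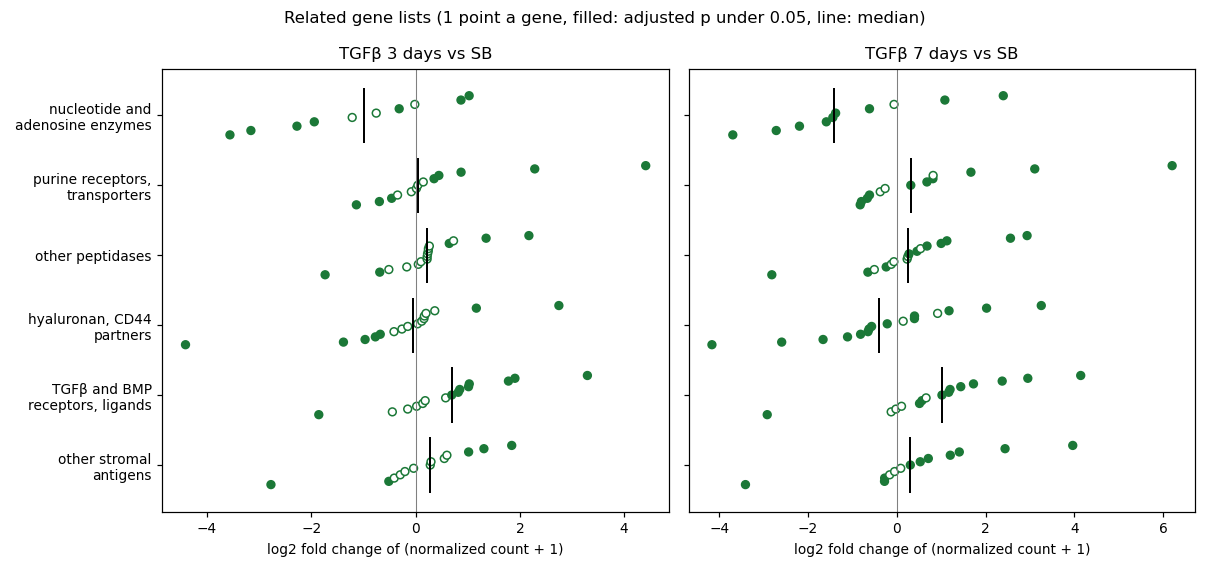
Log2 fold change (horizontal axis) against SB at 3 days (left) and 7 days (right) for each tested gene of 6 related lists, with filled points for an adjusted p under 0.05 and a black line at the median of each list. Of the nucleotide and adenosine enzymes 7 of 10 are lower at 7 days (4 of 7 without those that passed the filter only through SB), against 26.9% of all genes. Of the TGFβ and BMP receptors and ligands 10 of 15 are higher than in SB at 7 days, against 27.7% of all genes.

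The libraries kept keratin transcripts at all times, while other epithelial transcripts fell. The summed normalized count of 8 lung adenocarcinoma epithelial markers was 106306 and 117973 in SB, 99507 and 111740 at 3 days and 102987 and 90183 at 7 days, most of it from KRT8 and KRT18. At 7 days 5 of the 8 (EPCAM, CDH1, KRT18, SOX2 and NKX2-1) were lower than in SB and KRT7 was higher. Of all genes tested, 26.9% were lower and 27.7% higher. CDH1 fell furthest, to 10 and 9 normalized counts at 7 days. It passed the filter on low values only through its SB and 3-day libraries, so its call is given as a description. EPCAM fell by 1.62 and NKX2-1 by 1.73 on the log2 scale. KRT8 and KRT19 were not past the threshold. ENG and MCAM are also endothelial antigens. The sum of 9 endothelial markers was 259 and 404 in SB, 462 and 461 at 3 days and 490 and 442 at 7 days. Of these, CLDN5 was at 1 or below, CDH5 was at 14 and 20 in SB and at 5 or below with TGFβ, and TIE1, which passed the filter only through its TGFβ libraries, went from 1 and 0 to 51 and 40 at 7 days. TEK and ESAM also rose and KDR fell, and their part in the ENG and MCAM results was not tested. The sum of 7 fibroblast markers, which shares PDGFRA and PDGFRB with the stromal antigens and came mostly from COL1A1 and PDGFRB, was 231 and 277 in SB, 353 and 433 at 3 days and 953 and 736 at 7 days, with COL3A1, DCN and LUM at 1 or below in each library. In bulk RNA a change in the share of cells that express a gene cannot be told apart from a change per cell.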

How the data were processed

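Per the labels and the methods, polyA RNA libraries of H2087-LCC cells were made with a kit that does not mark strand (TruSeq RNA v2). Read pairs were mapped by the authors to hg19 with STAR, assigned to genes with HTSeq 0.6.1p1 and normalized by library size, with DESeq2 named in the processing notes. The deposited values are recorded as a score, since they are normalized counts rounded to whole numbers and not read counts. The annotation release is not given in the sources used here. The 6 columns matched the sample titles.

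Values were taken as log2 (value + 1), and genes averaging 10 or more entered a limma fit (limma 3.58.1, R 4.3.3, empirical Bayes with a trend) with group as the only term, 6 libraries and 3 residual degrees of freedom. The steps were tested on simulated data. What 1 read was worth was estimated from gaps among the low values of each library and lay between 0.896 and 1.10 normalized counts, so that the totals above are close to read numbers. In 3 libraries no such step was visible, as when a read is worth close to 1. In each group the median squared difference between its 2 libraries was 7.35 to 11.0 times that of read counting. The members and lists were chosen with earlier results of these data known. Outside the members and the cell type markers, up to 4 genes per list were named by rule. These had the largest change at 7 days against SB, an adjusted p under 0.05 and a mean of at least 100. The adenosine receptors, SUSD2, ALCAM, CD55 and genes named for being near 0 were chosen after their values were seen. CDH1 and SMAD7 check the treatment. Some items that the rules would name are not reported here. Coordinates are those of GENCODE 44 on GRCh37, the sequence of hg19, and promoters those of RefSeq on GRCh38.p14. Counts without genes that had a group mean under the filter were added after seeing the data. Alternatives changed the pseudocount, the filter, the scaling, the variance model, the libraries in the fit and the replicate block. Plots used matplotlib 3.10.9 (Python 3.11.15).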

Additional observations from a re-analysis of the deposited data

Results flagged for a closer look

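For 6 of the 9 tested genes the change relative to SB differed between the 2 times of TGFβ, by the test of 7 days against 3 days in the same limma fit. Over all genes tested, 33.2% were past the threshold in that comparison. The difference was 0.59 on the log2 scale for NT5E, 0.64 for ANPEP, 0.85 for ENG and 1.91 for FAP, each of which was higher than in SB at both times. For ENTPD1 it was -0.37, with values on either side of SB (0.20 and -0.17) that were themselves not past the threshold. For DPP4 it was 1.25, from a value of -2.18 at 3 days to -0.93 at 7 days, so that the gene was less far below SB at 7 days. Of these calls, only those of NT5E and ENG held in all alternatives. Without the filter on low values, and also without the trend, 3 members were past the threshold. FAP passed the filter on low values only through its TGFβ libraries, so its difference is given as a description. Counted without FAP, 5 of 8 genes differed between the 2 times. No group has enough libraries to look for a single library far from the others.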

How the results depend on the processing

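Of the 429 values of single genes computed under the alternatives, 388 kept their direction and their side of the threshold, 37 lost a call, 2 gained a call and 2 changed sign. Both sign changes were in MCAM between 7 days and 3 days, which lay between -0.0888 and 0.0514 with 1 library left out in turn (0.0514 without the second 3-day library and 0.0472 without the second 7-day library) and was not past the threshold in any. Requiring a log2 fold change beyond 1 in either direction left 4 members at 3 days against SB, 4 at 7 days against SB and 2 between 7 days and 3 days, in place of 7, 8 and 6. Over all genes it left 1267, 2400 and 940, in place of 4170, 7851 and 4775. Without the filter on low values, 3 members and 3042 genes were past the threshold between 7 days and 3 days, and without the trend 3 and 3122. With a library left out in turn, the count of members was 6 to 8 at 3 days against SB, 5 to 8 at 7 days against SB (5 without the first 7-day library) and 4 to 6 between 7 days and 3 days. The counts over all genes were 2609 to 3877, 5913 to 7687 and 2314 to 5554, and the lowest of the first was without the first 3-day library and of the other 2 without the second 7-day library. FAP has no value with a minimum mean of 50. Fewer libraries give fewer residual degrees of freedom. In such fits the lone library of a group was assumed to vary like the other groups.

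Same-numbered libraries did not deviate together (over genes, which are no independent replicates, Pearson's r was 0.14 for SB and 3 days, -0.10 for SB and 7 days and -0.29 for 3 days and 7 days), so the numbers were not taken as pairs. With the replicate number as a block, 7, 7 and 6 members and 3943, 7546 and 4485 genes were past the threshold, and MCAM at 7 days against SB was the only member call that changed. With equal library totals, 1819 genes were higher and 2550 lower at 3 days than in SB, against 2149 and 2021 as deposited. Values near 0, as for THY1 and FAP, are limited by depth.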

Other observations

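ANPEP had the widest range of group means of the tested genes, 5.25 on the log2 scale. Among 11381 other genes averaging 100 or more, the 3 whose 6 centred log2 values lay closest to those of ANPEP were SETBP1 (Euclidean distance 0.343), CSF1R (0.403) and LBH (0.405). The normalized count of CSF1R, which encodes the receptor for colony-stimulating factor 1, was 34 and 31 in SB, 626 and 677 at 3 days and 1114 and 1032 at 7 days. That of SETBP1 was 19 and 14, 377 and 351, and 674 and 607. That of LBH was 7 and 6, 224 and 195, and 323 and 292. The likeness is a description over 6 libraries in 3 groups.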
